A study of Arabidopsis thaliana with 12 samples.

Results

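The 6 leaf libraries of a poly(A) RNA-seq series of Arabidopsis seedlings were compared by the label they carry, 3 labelled WT and 3 labelled *pi4kß1ß2*. They were chosen by their labels out of 12 libraries in all, and the other 6 come from roots. The seedlings, 7 days old, were grown on agar with sucrose at 22 °C under 16 h of light and 8 h of darkness and received no treatment. WT is Col-0, and *pi4kß1ß2* is a double T-DNA insertion line in PI4Kß1 and PI4Kß2, which encode phosphatidylinositol 4-kinases that make a signalling lipid of the trans-Golgi network and of the cell plate. Both groups share age, medium and light regime as labelled, except that the label of the library labelled WT replicate 3 gives, in place of a growth stage, planting and harvest dates 52 days apart. RNA of many plants was pooled per replicate according to the study's methods, which describe this for roots, so the spread between replicates is a spread between pools. The 3 replicates of a label are called biological by the submitters. Each leaf library held 38116716 to 41095056 counts on genes, and 19470 of the 37336 gene identifiers reached 1 CPM (a count scaled by library size) in at least 3 of the 6 libraries and were tested. CPM values below are given in the order of replicates 1, 2 and 3. A log2 fold change is the libraries labelled *pi4kß1ß2* minus those labelled WT, with its standard error, and a gene was called at an adjusted p of 0.05 over all genes tested (edgeR quasi-likelihood test).

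The plant circadian clock is a loop of repressors. The MYB factors LHY and CCA1 accumulate around dawn and repress genes of the day and evening through a short promoter sequence, the evening element, and the day and evening proteins in turn repress LHY and CCA1. Clock and light signals meet at the phytochrome interacting factors (PIFs), which raise auxin, gibberellin and brassinosteroid genes during shade and at the end of the night. Auxin acts by destroying the Aux/IAA repressors, whose own genes are among the fastest auxin-induced transcripts.

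The targeted genes and a pair of strongly label-dependent root genes were examined first, because they check the labels. PI4Kß1 (AT5G64070) stood at 51.1, 40.4 and 57.1 CPM in the libraries labelled WT and at 65.5, 44.2 and 42.2 CPM in those labelled *pi4kß1ß2*. PI4Kß2 (AT5G09350) stood at 9.88, 3.96 and 10.1 CPM and at 9.099, 5.25 and 5.56 CPM. For both genes the groups overlapped, and the lowest value of PI4Kß2 was in the library labelled WT replicate 2. MRD1 (AT1G53480), a gene of unknown function, stood at 37.03, 0.719 and 38.6 CPM under the WT label and at 38.4, 0.896 and 0.998 CPM under the other. AT5G35935, a second gene without a described role, stood at 0.222, 21.7 and 0.217 CPM and at 0.0282, 18.8 and 22.04 CPM. In both genes the library labelled WT replicate 2 had the level of the libraries labelled *pi4kß1ß2* replicates 2 and 3, and the library labelled *pi4kß1ß2* replicate 1 had the level of the libraries labelled WT replicates 1 and 3. None of the 4 genes passed the test between the leaf labels. In the roots all 4 separated by label. MRD1 was at 52.0, 53.8 and 55.8 CPM against 0.801, 1.73 and 0.402 CPM there, and PI4Kß2 at 17.5, 19.3 and 16.8 CPM against 8.63, 9.001 and 7.99 CPM. Reads outside an insertion can remain in a T-DNA line, so the levels of the kinase genes are a partial check only. These 2 leaf libraries may carry each other's label. No statement below is about genotype: each one says what the libraries labelled *pi4kß1ß2* showed against the libraries labelled WT, and for each gene list the count of called members is also given without the 2 libraries in doubt.

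**Figure D1:**
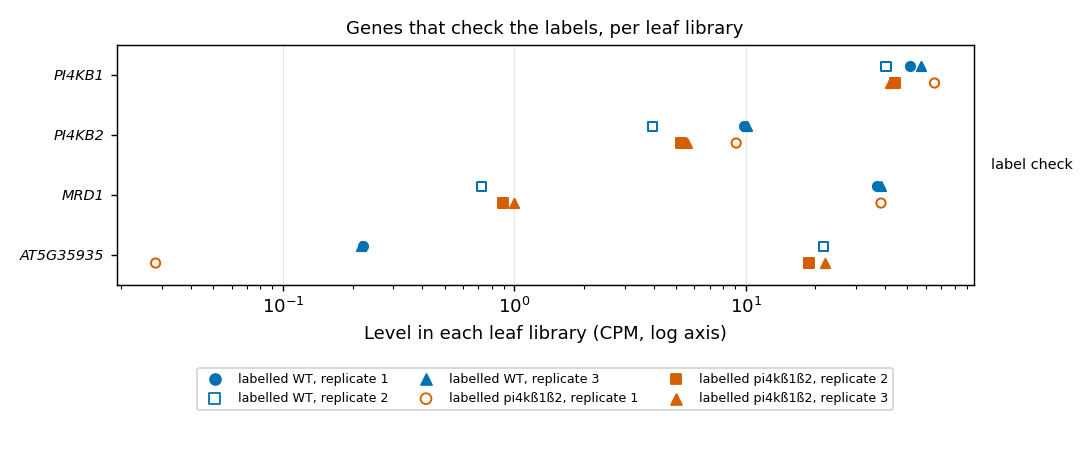
Levels of the 4 label check genes in each leaf library, in CPM on a log axis, with the WT label in blue, the *pi4kß1ß2* label in orange, a marker shape for each replicate and open symbols for the 2 libraries in doubt. For MRD1 the open blue square (0.719 CPM) lies with the filled orange symbols and the open orange circle (38.4 CPM) with the filled blue ones, and AT5G35935 shows the mirror image.

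On a principal component analysis, the first component held 45.3% of the variance. The libraries labelled *pi4kß1ß2* lay at 28.0, 35.3 and 17.1 on it, above those labelled WT at -40.7, 3.65 and -43.5. The second component held 32.7% and set the library labelled WT replicate 2 (-44.0) and the library labelled *pi4kß1ß2* replicate 1 (45.2) at its opposite ends, with the other 4 between -9.03 and 8.16. Between the labels 724 genes (3.72% of those tested) were higher and 1317 (6.76%) lower in the libraries labelled *pi4kß1ß2*, and the median log2 fold change over all genes was -0.0043. All 2041 called genes had groups that did not overlap, against 37.6% of all tested genes. In bulk samples fewer cells of a type and less RNA per cell cannot be told apart. Without the 2 libraries in doubt, 2480 genes (13%) were called higher and 2660 (14%) lower, 27% in all, and 1958 of the 2041 (95.9%) were among them with the same direction. That fit had 2 libraries of each label, all of them also in the full fit, so the 2 sets of calls are not independent. Of the 4 label check genes 3 were tested in it, PI4Kß1, PI4Kß2 and MRD1, and all 3 were called lower. For MRD1 and PI4Kß2 the choice of the libraries left out fixed this outcome. AT5G35935 did not pass the filter there and was not tested. The count rested on single libraries. It was 55 without the library labelled WT replicate 1, 68 without WT replicate 3, 12 without *pi4kß1ß2* replicate 2, 746 without *pi4kß1ß2* replicate 3 and 1331 without *pi4kß1ß2* replicate 1, but 2219 without WT replicate 2.

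**Figure D2:**
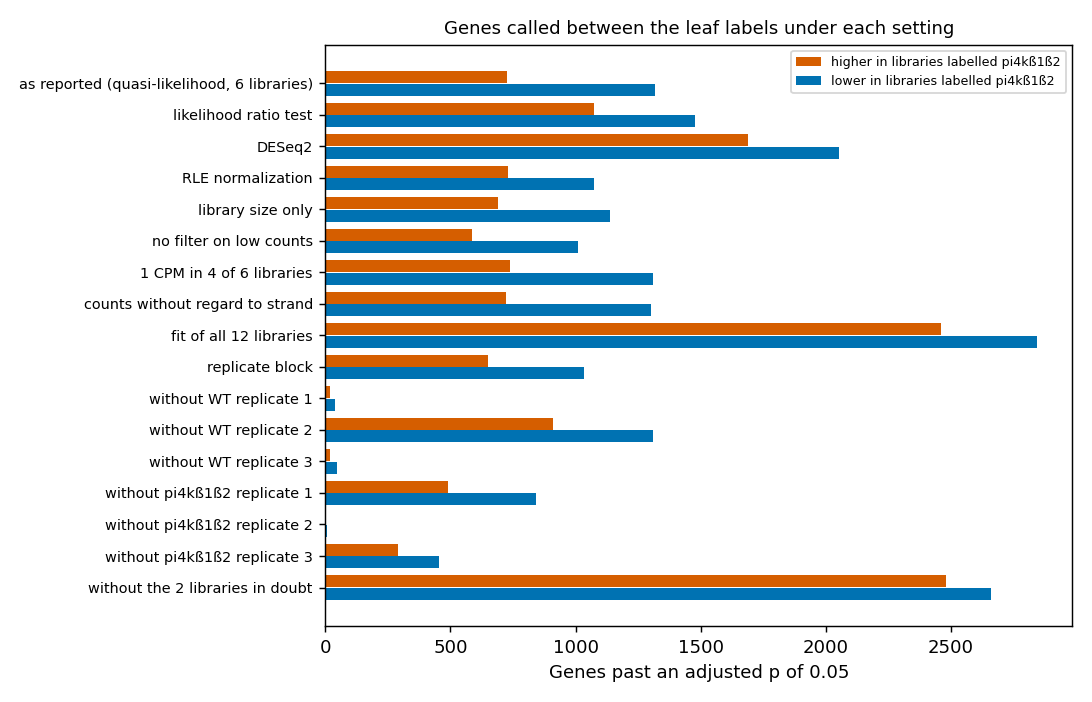
Number of genes called higher (orange) and lower (blue) in the libraries labelled *pi4kß1ß2* at an adjusted p of 0.05, as reported and under each other setting. The bars run from 12 genes in all without the library labelled *pi4kß1ß2* replicate 2 to 5306 with a fit of all 12 libraries.

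The circadian clock genes followed the labels. The hour at which the leaves were harvested is not given in the sources used. Its part in this and in the differences below was not tested and cannot be told apart from the labels. Over the 3 clock lists 4 of 39 genes that passed the filter were called higher and 19 lower, 59.0% against 10.5% of all genes tested. Of 14 day and evening clock genes 9 were lower and none higher in the libraries labelled *pi4kß1ß2*, with a median log2 fold change of -1.17 over the list. FKF1, LUX, ELF4, PRR3 and PRR5 were among the genes that fell, while the dawn gene LHY and the coactivator gene LNK2 rose. The list had 11 genes called lower without the 2 libraries in doubt. In that fit 13% of all genes tested were called higher and 14% lower, the shares to set beside each count given without these libraries.

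PRR5, a pseudo-response regulator that represses CCA1 and LHY in the afternoon, stood at 60.01, 49.5 and 59.3 CPM in the libraries labelled WT and at 7.38, 12.9 and 15.8 CPM in those labelled *pi4kß1ß2* (log2 fold change -2.22 ± 0.28, adjusted p = 0.0137). TOC1, the evening repressor of the loop, stood at 77.3, 79.6 and 67.1 CPM and at 24.3, 26.5 and 27.2 CPM (log2 fold change -1.52 ± 0.09, adjusted p = 0.0036). GI, which stabilizes the F-box protein ZTL, stood at 89.2, 93.4 and 92.4 CPM and at 33.2, 40.00 and 45.4 CPM (log2 fold change -1.21 ± 0.12, adjusted p = 0.00944). In each of these 3 genes every library labelled WT was above every library labelled *pi4kß1ß2*, and the 2 libraries in doubt lay with their labels. Groups were apart in this way, in either direction, in all 2041 called genes. FKF1, the blue light receptor that times flowering with GI, stood at 28.1, 22.7 and 27.6 CPM and at 0.592, 1.92 and 3.25 CPM (log2 fold change -3.75 ± 0.52, adjusted p = 0.0156). ELF4, a subunit of the evening complex, stood at 15.5, 21.2 and 16.3 CPM and at 1.49, 2.71 and 3.23 CPM (log2 fold change -2.83 ± 0.30, adjusted p = 0.0109). The lowest value of both was in the library labelled *pi4kß1ß2* replicate 1, one of the libraries in doubt, and without the doubtful pair the log2 fold changes were -3.42 and -2.41. The other subunits of the evening complex, LUX (log2 fold change -1.13) and ELF3 (-0.93), were also lower, as were PRR3 (-2.48), which stabilizes TOC1, and JMJD5 (-1.96), a histone demethylase gene with an evening peak. The 5 members that were not called were PRR7, BOA, ZTL, LKP2 and CHE, at log2 fold changes of -1.05 to 0.07. PRR7, which acts earlier in the day than PRR5, stood at 166, 142 and 166 CPM and at 162, 132 and 136 CPM, and its groups overlapped.

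Of 13 morning clock genes 3 were called higher and 3 lower, and 4 and 4 without the 2 libraries in doubt. LHY stood at 1.06, 1.58 and 1.81 CPM in the libraries labelled WT and at 14.5, 8.99 and 7.04 CPM in those labelled *pi4kß1ß2* (log2 fold change 2.77 ± 0.34, adjusted p = 0.0137). CCA1, its close homologue, stood at 16.3, 16.7 and 17.2 CPM and at 36.4, 21.6 and 17.9 CPM, with the groups apart but no call (log2 fold change 0.60, adjusted p = 0.186). LNK2, a coactivator that works with RVE factors, stood at 115, 96.9 and 115 CPM and at 351, 279 and 249 CPM (log2 fold change 1.43 ± 0.15, adjusted p = 0.0104). LHY and CCA1 were both highest in the library labelled *pi4kß1ß2* replicate 1, and without the 2 libraries in doubt the log2 fold change of LHY was 2.48. The third gene called higher was RVE4 (0.48), an activator of evening genes. Those called lower were RVE2 (-1.44) and RVE7 (-1.09), MYB factors related to LHY, and LNK1 (-0.55), the partner of LNK2. The other 7 members lay between -0.73 and 0.86.

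**Figure D3:**
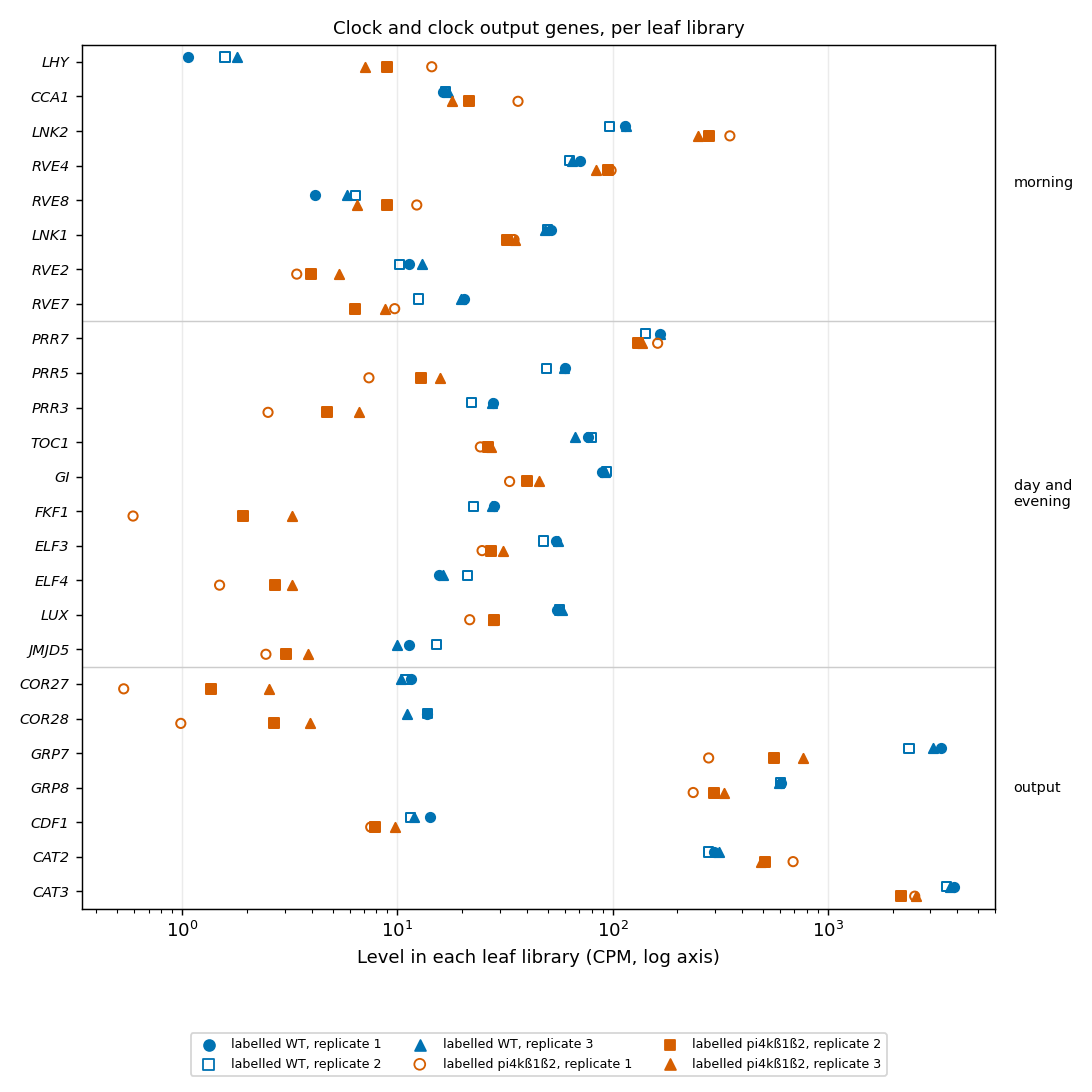
Levels of 25 clock and clock output genes in each leaf library, in CPM on a log axis, with colours, shapes and open symbols as in the plot of the label check genes. The blue and orange symbols are apart for TOC1 (67.1 CPM and above against 27.2 CPM and below) and for LHY in the other direction, and they overlap for PRR7.

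Of 12 clock output genes that passed the filter on low values 7 were called lower and 1 higher, and 8 and 1 without the 2 libraries in doubt. GRP7, an RNA-binding protein with an evening peak, stood at 3356, 2386 and 3097 CPM in the libraries labelled WT and at 279.7, 559.8 and 765 CPM in those labelled *pi4kß1ß2* (log2 fold change -2.46 ± 0.38, adjusted p = 0.0191). Its paralogue GRP8 stood at 605, 605 and 596 CPM and at 237, 297 and 329.8 CPM (log2 fold change -1.06 ± 0.13, adjusted p = 0.0129). COR27, a night-time regulator of the clock and of freezing tolerance, stood at 11.5, 10.9 and 10.4 CPM and at 0.535, 1.36 and 2.53 CPM (log2 fold change -2.88 ± 0.49, adjusted p = 0.024). All 3 genes had groups that were apart, with the library labelled *pi4kß1ß2* replicate 1 the lowest. COR28 (-2.34), the homologue of COR27, BBX18 (-1.43), a B-box factor of light signalling, CDF1 (-0.59), a morning repressor of CO, and the catalase gene CAT3 (-0.61), which peaks in the evening, were lower too. CAT2, the catalase gene with a morning peak, was the gene called higher, at 296, 279.6 and 311 CPM against 690.1, 511 and 491 CPM (log2 fold change 0.93 ± 0.15, adjusted p = 0.0191). CDF2, CDF3, CDF5 and BBX19 were not called, and CO, with 19 to 82 counts per library, did not pass the filter.

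The promoters of these genes are shown because the evening element is a sequence through which LHY and CCA1 act. Each window is the 300 bases before the annotated gene start in the TAIR10.1 assembly (RefSeq annotation), read 5′ to 3′ on the strand of the gene, with matches to the evening element (AAAATATCT, searched on both strands) in capitals for the first 3 genes and matches to the G-box (CACGTG, a palindrome bound by PIFs and other bHLH and bZIP factors) in capitals for the last pair. The windows are chr5:24674663-24674962 (plus strand) for TOC1, chr5:8358547-8358846 (minus) for PRR5, chr2:9266558-9266857 (minus) for GRP7, chr1:37872-38171 (minus) for LHY and chr3:5263701-5264000 (plus) for IAA19, an auxin gene described further on.
TOC1: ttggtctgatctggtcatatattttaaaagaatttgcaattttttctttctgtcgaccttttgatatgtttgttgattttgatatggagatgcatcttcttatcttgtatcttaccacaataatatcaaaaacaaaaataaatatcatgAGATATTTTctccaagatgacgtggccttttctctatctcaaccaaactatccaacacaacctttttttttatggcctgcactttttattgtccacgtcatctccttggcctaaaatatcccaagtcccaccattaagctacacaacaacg
PRR5: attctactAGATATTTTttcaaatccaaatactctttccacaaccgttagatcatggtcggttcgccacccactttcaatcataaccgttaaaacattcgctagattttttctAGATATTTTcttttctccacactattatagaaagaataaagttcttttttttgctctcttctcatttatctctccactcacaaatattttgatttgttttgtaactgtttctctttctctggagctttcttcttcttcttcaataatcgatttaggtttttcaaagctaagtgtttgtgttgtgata
GRP7: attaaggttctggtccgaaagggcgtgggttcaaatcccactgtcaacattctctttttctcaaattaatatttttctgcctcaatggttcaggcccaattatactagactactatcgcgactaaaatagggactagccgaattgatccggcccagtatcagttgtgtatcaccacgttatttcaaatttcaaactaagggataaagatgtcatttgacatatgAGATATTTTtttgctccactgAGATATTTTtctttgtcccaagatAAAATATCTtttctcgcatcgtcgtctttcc
LHY: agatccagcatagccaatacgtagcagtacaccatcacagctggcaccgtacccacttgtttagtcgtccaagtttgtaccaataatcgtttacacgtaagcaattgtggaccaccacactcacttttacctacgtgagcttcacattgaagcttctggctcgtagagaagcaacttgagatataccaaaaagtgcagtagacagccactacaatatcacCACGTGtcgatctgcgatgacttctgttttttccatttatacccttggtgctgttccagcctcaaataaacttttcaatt
IAA19: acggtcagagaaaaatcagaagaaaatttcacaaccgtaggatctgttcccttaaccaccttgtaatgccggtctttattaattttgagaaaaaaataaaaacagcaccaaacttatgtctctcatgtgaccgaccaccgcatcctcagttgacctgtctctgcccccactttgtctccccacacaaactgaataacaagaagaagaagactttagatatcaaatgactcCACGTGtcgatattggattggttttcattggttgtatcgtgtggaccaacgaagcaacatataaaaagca

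The evening element was in the window of 560 of 19401 tested genes (2.89%) that have one on a nuclear chromosome. It was in 99 of the 1317 genes called lower (7.52%) and in 7 of the 724 called higher (0.967%). Among the called members, 4 of 9 day and evening clock genes and 4 of 7 lower clock output genes held it. Over the whole lists the counts were 5 of 14 and 4 of 12. Without the 2 libraries in doubt the shares were 5.86% of the genes called lower and 1.82% of those called higher. Another sequence named for CCA1, the CCA1 binding site (AAAAATCT), shares no full match with the evening element. It was in 7.96% of all windows, in 8.66% of the genes called lower and in 7.46% of those called higher. The G-box was in 7.99% of all windows, in 14.5% of those of genes called higher and in 6.23% of those of genes called lower, and without the 2 libraries in doubt in 10.6% and 6.09%. These are counts of letters and were not tested.

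The shade genes that passed the test were all higher in the libraries labelled *pi4kß1ß2*. Of 14 PIF and shade genes 5 were called higher and none lower (7 and 1 without the 2 libraries in doubt), with a median log2 fold change of 0.77. Among all genes tested 3.72% were called higher and 6.76% lower (13% and 14% without those libraries). All 5 encode class II HD-Zip factors, which are classic markers of low red to far-red light. ATHB2, the best known of them, stood at 32.1, 29.99 and 30.2 CPM in the libraries labelled WT and at 116, 117 and 125 CPM in those labelled *pi4kß1ß2* (log2 fold change 1.95 ± 0.07, adjusted p = 0.00139). ATHB4, its relative, stood at 1.68, 1.75 and 1.88 CPM and at 23.4, 11.6 and 10.01 CPM (log2 fold change 3.08 ± 0.36, adjusted p = 0.013). ATHB2 was near one level within each label, also in the 2 libraries in doubt, and it was called under every one of the 16 other settings. HAT1 stood at 32.2, 40.6 and 36.96 CPM against 129, 97.7 and 87.6 CPM (log2 fold change 1.52). HAT2 stood at 49.3, 34.1 and 47.7 CPM against 160.3, 119 and 121 CPM (1.61), and HAT3 at 15.96, 13.4 and 15.9 CPM against 49.5, 37.03 and 35.2 CPM (1.43). In all 3 the groups were apart and the library labelled *pi4kß1ß2* replicate 1 was the highest. The 9 members that were not called lay between -0.29 and 0.89 and include the PIF genes PIF1, PIF3, PIF4, PIF5 and PIF7 and the shade-induced genes PIL1, HFR1, PAR1 and PAR2. None of the 5 promoter windows of the called genes held the G-box letters.

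The auxin genes that passed the test were mostly higher. Over the 5 auxin lists 32 of 123 genes that passed the filter were called higher and 5 lower. That is 30.1% in either direction, against 10.5% of all genes tested (3.72% higher and 6.76% lower). The Aux/IAA genes had the largest share, 13 of 25 higher and 1 lower, with a median log2 fold change of 0.49, and 16 and 2 of 24 without the 2 libraries in doubt.

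IAA19, a PIF-induced Aux/IAA gene of hypocotyl growth, stood at 28.6, 19.97 and 23.7 CPM in the libraries labelled WT and at 68.9, 85.9 and 91.6 CPM in those labelled *pi4kß1ß2* (log2 fold change 1.77 ± 0.17, adjusted p = 0.00944). IAA5 stood at 0.813, 0.935 and 1.01 CPM and at 8.68, 6.91 and 6.53 CPM (log2 fold change 3.00 ± 0.18, adjusted p = 0.00393). Under the WT label only replicate 3 of IAA5 reached 1 CPM, so it passed the filter through the libraries where it was high. Its tests without the 2 libraries in doubt and with 1 CPM in 4 of 6 libraries hung on that replicate. IAA29, a shade-responsive member, stood at 39.9, 14.6 and 33.4 CPM and at 79.1, 86.3 and 112 CPM (log2 fold change 1.66 ± 0.37, adjusted p = 0.0447). The labels were apart in all 3, and the low value of IAA29 in the library labelled WT replicate 2 widened its spread. IAA30 (2.37), IAA6 (1.52), IAA2 (1.31), IAA1 (1.15), IAA13 (1.14) and IAA3 (1.05) rose more than 2-fold. IAA14 (0.94), IAA16 (0.71), IAA12 (0.39) and IAA8 (0.33) rose less. IAA34 was the member that fell, at 1.97, 1.22 and 2.43 CPM against 0.479, 0.487 and 0.8704 CPM (log2 fold change -1.61 ± 0.38, adjusted p = 0.0492), and it passed the filter on low values only through the libraries labelled WT and did not pass it without the 2 libraries in doubt. The 11 members that were not called ranged from -0.94 to 0.53, and IAA20 and IAA31 did not pass the filter. The auxin response element (TGTCTC, both strands) was in 7 of the 13 windows of Aux/IAA genes called higher. It was in 10 of the 25 windows over the whole list, that of IAA34 among them. The shares were 12.7% of all windows and 17.3% of those of all genes called higher. The letters CCGAC, described with the cold genes below, were in 8 of the same 13 windows, against 15.0% of all windows. These counts were not tested.

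Of 16 auxin synthesis and conjugation genes 3 were higher and none lower, and 5 of 15 were higher without the 2 libraries in doubt. YUC9, a flavin monooxygenase of the last step of auxin synthesis, stood at 3.55, 5.202 and 4.72 CPM in the libraries labelled WT and at 14.5, 17.6 and 20.02 CPM in those labelled *pi4kß1ß2* (log2 fold change 1.95 ± 0.19, adjusted p = 0.00944). YUC8, which is shade-induced, stood at 18.6, 11.5 and 22.3 CPM and at 20.3, 25.1 and 33.6 CPM with overlapping groups (log2 fold change 0.59, adjusted p = 0.226). GH3.3, an auxin-induced amido synthetase that conjugates auxin to amino acids, stood at 62.2, 41.8 and 76.95 CPM and at 115, 152 and 189 CPM (log2 fold change 1.33 ± 0.27, adjusted p = 0.0371). YUC9 was thus apart between the labels and YUC8 was not. YUC5, of the same family, stood at 8.52, 7.598 and 6.89 CPM and at 38.2, 17.5 and 14.6 CPM, with the groups apart but no call (log2 fold change 1.61, adjusted p = 0.0501). YUC5 (1.06, adjusted p = 0.00535), GH3.2 (1.23, adjusted p = 0.00149) and GH3.17 (0.73, adjusted p = 0.00142) were called higher without the 2 libraries in doubt. GH3.5 was higher at 0.88 and lost its call without the 2 libraries in doubt (1.07, adjusted p = 0.0621). YUC1, YUC4, YUC7 and GH3.4 did not pass the filter. Of 13 transport genes 3 were higher: the influx carriers AUX1 (0.45) and LAX2 (1.12), and PIN6 (0.72), an efflux carrier of internal membranes. PIN3, PIN4 and PIN7 and the ABCB genes were not called, and PIN8 did not pass the filter. Of 12 transport genes tested without the 2 libraries in doubt 6 were called higher, PIN3 (0.46) and ABCB19 (0.28) among them, and LAX1 (-0.57) was called lower. Of 15 receptors and response factors ARF2 (0.49) and ARF19 (0.75) were higher, and the receptor TIR1 (-0.28) and ARF6 (-0.39) were lower, and the call of ARF6 was lost without the 2 libraries in doubt (-0.36, adjusted p = 0.0562). Without those libraries 3 of the 15 were called higher and 5 lower, against 13% and 14% of all genes tested in that fit.

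SAUR genes encode small proteins that promote cell expansion, and many are induced by auxin. Of 79 in the annotation 54 passed the filter, 11 were called higher and 2 lower (19 and 6 without the 2 libraries in doubt), with a median log2 fold change of 0.27. The shares over all genes tested were 3.72% and 6.76% (13% and 14% without those libraries). Of the 11, 7 lie next to each other on chromosome 1, between bases 10302585 and 10323239 (TAIR10.1): SAUR62, SAUR63, SAUR64, SAUR65, AT1G29490, SAUR66 and AT1G29510. SAUR64 stood at 4.56, 2.804 and 4.87 CPM in the libraries labelled WT and at 11.7, 9.01 and 10.04 CPM in those labelled *pi4kß1ß2* (log2 fold change 1.33 ± 0.23, adjusted p = 0.0246). AT1G29510 stood at 4.02, 2.92 and 3.23 CPM and at 11.4, 8.48 and 8.35 CPM (log2 fold change 1.47 ± 0.19, adjusted p = 0.0138). The levels of the 7 genes are low, and the fold changes ran from 1.13 to 1.47 on the log2 scale. These neighbours are close in sequence, reads that fit more than one gene were not counted, and how reads split among them is uncertain. The other genes called higher were SAUR26 (0.98), SAUR29 (0.89), SAUR1 (1.15) and AT5G18030 (0.67). SAUR72 (-0.98) and SAUR57 (-1.73) were lower.

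Genes of gibberellin and brassinosteroid metabolism showed 5 of 8 higher and none lower, with and without the 2 libraries in doubt. The share of all genes tested called higher was 3.72%, and 13% without those libraries. BAS1, a cytochrome P450 that inactivates brassinosteroids and is induced by shade, stood at 4.68, 4.58 and 5.06 CPM in the libraries labelled WT and at 24.3, 19.6 and 21.2 CPM in those labelled *pi4kß1ß2* (log2 fold change 2.19 ± 0.11, adjusted p = 0.00263). GA20OX1, an enzyme of gibberellin synthesis, stood at 1.77, 1.46 and 1.66 CPM and at 3.94, 4.69 and 4.12 CPM (log2 fold change 1.38 ± 0.16, adjusted p = 0.0129). DWF4, an early enzyme of brassinosteroid synthesis, stood at 10.6, 17.2 and 9.47 CPM and at 30.9, 30.2 and 28.9 CPM (log2 fold change 1.27 ± 0.23, adjusted p = 0.0261). The 3 genes separated the labels, and in DWF4 the library labelled WT replicate 2 lay above the others of its label. GA3OX1 (0.99), which makes active gibberellin, and CPD (0.55), of brassinosteroid synthesis, completed the called genes. BAS1, like ATHB2 and IAA5, was called under all 16 other settings. For IAA5 the limit of the filter given with its values holds there too.

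The cold genes that passed the test were all lower. Of 9 members 5 were called lower and none higher, with a median log2 fold change of -2.46, and 4 of 9 without the 2 libraries in doubt. The share of all genes tested called lower was 6.76%, and 14% without those libraries. RD29A, a dehydration and cold-induced gene with the DRE core (CCGAC) in its promoter window, stood at 121, 135 and 104 CPM in the libraries labelled WT and at 19.8, 17.3 and 20.5 CPM in those labelled *pi4kß1ß2* (log2 fold change -2.64 ± 0.13, adjusted p = 0.00263). KIN2, a cold-induced gene of the same response, stood at 259, 414 and 162 CPM and at 49.5, 47.9 and 54.1 CPM (log2 fold change -2.46 ± 0.34, adjusted p = 0.0156). CBF3, one of the factors that bind the DRE, stood at 25.1, 26.3 and 16.9 CPM and at 1.38, 3.71 and 4.71 CPM (log2 fold change -2.79 ± 0.44, adjusted p = 0.0198). RD29A had the narrowest groups of the 3 and was called under all 16 other settings. COR15B, a chloroplast protein of freezing tolerance, stood at 61.8, 129.8 and 22.5 CPM and at 3.77, 5.81 and 7.83 CPM (log2 fold change -3.61 ± 0.69, adjusted p = 0.0302). COR15A, its neighbour and near copy, stood at 65.1, 149 and 18.9 CPM and at 8.99, 11.2 and 11.5 CPM and was not called (adjusted p = 0.0569). Both varied widely among the libraries labelled WT, and COR15B lost its call without the 2 libraries in doubt (-2.62, adjusted p = 0.0918). COR47 (-0.72), a dehydrin gene, was the fifth gene called lower, and CBF1, CBF2 and KIN1 lay between -0.92 and 0.00. The DRE core itself was in 15.0% of all windows, 14.6% of those called higher and 15.0% of those called lower.

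**Figure D4:**
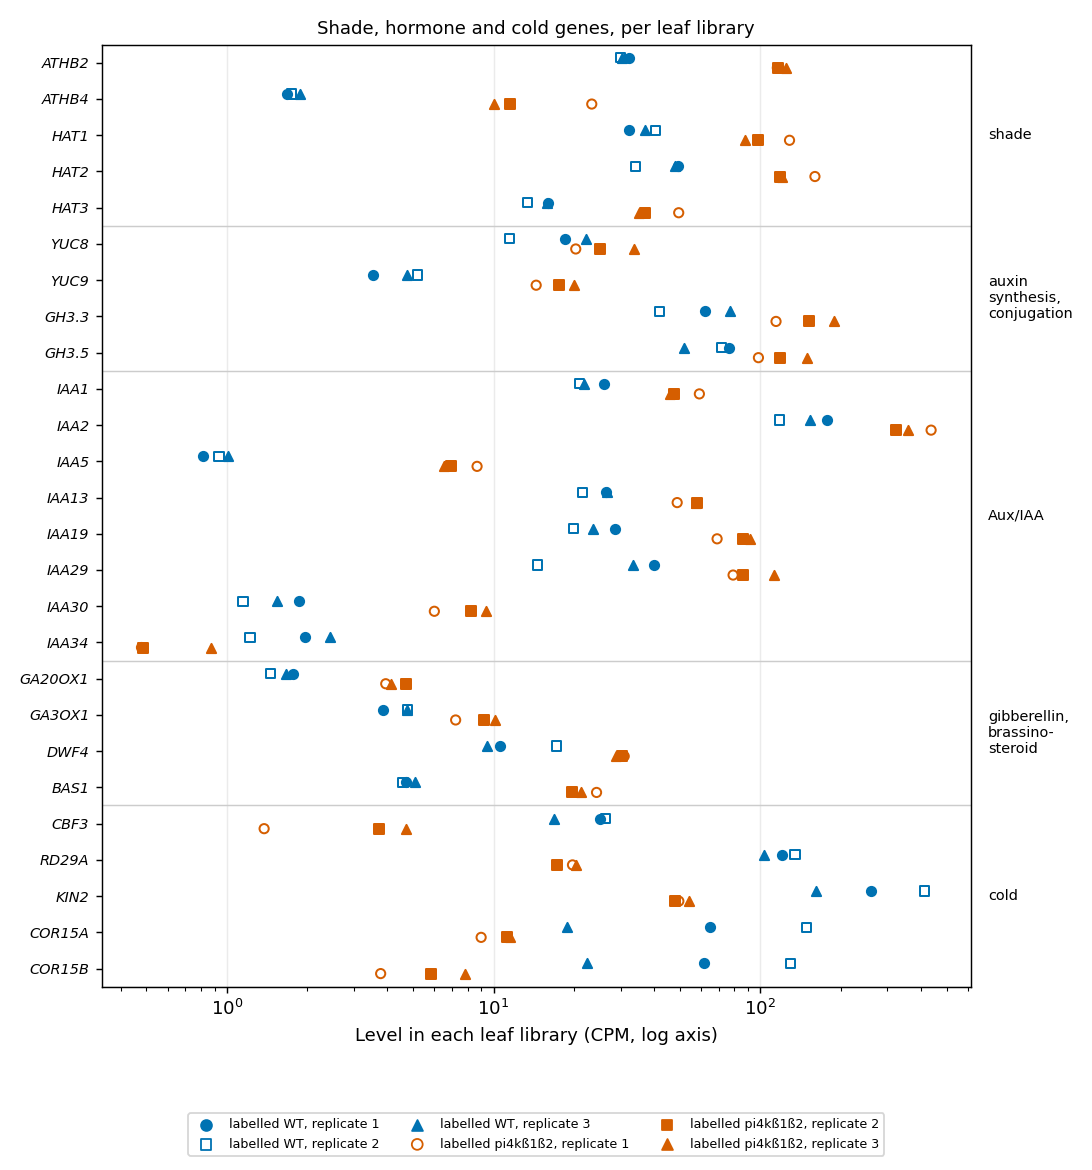
Levels of 26 shade, auxin, gibberellin, brassinosteroid and cold genes in each leaf library, in CPM on a log axis, with colours, shapes and open symbols as in the plot of the label check genes. ATHB2 forms a pair of tight clusters, at 29.99 to 32.1 CPM and at 116 to 125 CPM, while COR15A and COR15B spread over the libraries labelled WT.

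Light signalling genes moved both ways. Of 32 photoreceptor and light signalling genes that passed the filter 4 were called higher and 6 lower, and the median log2 fold change was -0.09. The counts were 5 and 7 of 30 without the 2 libraries in doubt. Over all genes tested the shares were 3.72% and 6.76%, and 13% and 14% without those libraries. HY5, a bZIP factor of light signalling, stood at 14.8, 16.4 and 16.05 CPM in the libraries labelled WT and at 6.37, 7.91 and 8.27 CPM in those labelled *pi4kß1ß2* (log2 fold change -1.07 ± 0.12, adjusted p = 0.012). SPA1, a partner of the COP1 ubiquitin ligase, stood at 67.5, 67.95 and 73.9 CPM and at 40.8, 42.9 and 46.7 CPM (log2 fold change -0.68 ± 0.08, adjusted p = 0.012). Both had groups apart, including the libraries in doubt, as all called genes did. The B-box genes BBX22 (-0.83), BBX25 (-0.95) and BBX30 (-1.69) and the ultraviolet-B receptor UVR8 (-0.50) were the other genes called lower. BBX30 stood below 1 CPM in every library labelled *pi4kß1ß2*, so it passed the filter only through the libraries labelled WT, and it was not tested without the 2 libraries in doubt. PHYD (0.32), a phytochrome, FHL (0.94), a nuclear import factor of phytochrome A, BBX16 (0.90) and ELIP2 (1.23), a light stress protein, were higher. PHYA, PHYB and the cryptochrome genes CRY1 and CRY2 were not called, nor was COP1, and BBX23 did not pass the filter. PHYB (0.40, adjusted p = 0.0155) was called higher and CRY2 (-0.37, adjusted p = 0.0118) lower once the 2 libraries in doubt were left out.

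Light harvesting and Rubisco genes had 8 of 26 called higher and none lower (13 and 1 without the 2 libraries in doubt), with a median of 0.38. Among all genes tested 3.72% were called higher and 6.76% lower (13% and 14% without those libraries). LHCB2.3, an antenna protein of photosystem II, stood at 621, 990.1 and 513 CPM in the libraries labelled WT and at 1760, 1725 and 2017 CPM in those labelled *pi4kß1ß2* (log2 fold change 1.37 ± 0.25, adjusted p = 0.0274). LHCA4, of the photosystem I antenna, stood at 5700, 5500 and 5120 CPM and at 9289, 8480 and 8796 CPM (log2 fold change 0.70 ± 0.08, adjusted p = 0.0118). The groups were apart in both, with LHCB2.3 in the library labelled WT replicate 2 above the others of its label. LHCA1 (0.57), LHCB1.1 (0.99), LHCB2.2 (0.56), LHCB3 (0.63), LHCB6 (0.47) and RBCS2B (0.38) were the others called. Members of the LHCB1, LHCB2 and RBCS families are near copies, so their single values are uncertain. The G-box was in 4 of the 8 windows of the genes called higher. It was in 6 of 26 windows over the whole list and in 7.99% of all windows.

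The largest differences in either direction included genes outside these lists. DFR, a late enzyme of anthocyanin synthesis, stood at 0.616, 0.455 and 0.626 CPM in the libraries labelled WT and at 31.5, 21.5 and 10.4 CPM in those labelled *pi4kß1ß2* (log2 fold change 5.21 ± 0.49, adjusted p = 0.00922). LDOX, the next enzyme of the pathway, stood at 0.739, 0.767 and 0.602 CPM and at 12.7, 8.58 and 4.86 CPM (log2 fold change 3.63 ± 0.40, adjusted p = 0.012). GSTF12, which carries anthocyanin to the vacuole, stood at 0.394, 0.623 and 0.361 CPM and at 5.69, 3.71 and 2.304 CPM (log2 fold change 3.08 ± 0.42, adjusted p = 0.0155). All 3 followed the same order among the libraries labelled *pi4kß1ß2*, highest in the library labelled replicate 1, which is in doubt, and stood below 1 CPM in every library labelled WT, so they passed the filter only through the libraries where they were high. Without the 2 libraries in doubt the filter still asked for 1 CPM in 3 of the 4 libraries left, which a gene above 1 CPM under one label alone cannot meet, so these 3 genes were not tested there. CHS, the first enzyme of flavonoid synthesis, stood at 49.8, 58.8 and 57.1 CPM and at 67.9, 72.9 and 61.7 CPM and was not called (log2 fold change 0.29, adjusted p = 0.108). CCD8, of strigolactone synthesis, (3.05) and AT1G62420, annotated as a DUF506 protein, (2.79) completed the 8 largest positive changes with ATHB4, IAA5 and LHY. CCD8 was also below 1 CPM in every library labelled WT, so the same limit holds for it. AT1G62420 stood at 0.813, 2.23 and 0.675 CPM under the WT label, above 1 CPM only in replicate 2, which is in doubt. It too was not tested without the 2 libraries in doubt. Among the largest negative changes AT1G07050, annotated as a CCT motif protein, stood at 14.1, 10.1 and 11.5 CPM and at 0.507, 0.359 and 0.691 CPM (log2 fold change -4.51 ± 0.27, adjusted p = 0.0036). AT5G23240, annotated as a DNAJ domain protein, stood at 54.4, 31.4 and 42.4 CPM and at 2.48, 3.099 and 4.43 CPM (log2 fold change -3.67 ± 0.30, adjusted p = 0.00726). Both were separate by label with no library between, but AT1G07050 passed the filter only through the libraries labelled WT, where it was high, and was not tested without the 2 libraries in doubt. AT4G19430, uncharacterized, changed by -3.19, and FKF1, COR15B, COR27, ELF4 and CBF3 were the rest of the 8.

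Other lists showed few calls or none. The touch and wound genes (12 tested) and the salicylic acid and immunity genes (20 tested) had no call by edgeR in either direction, against 10.5% of all genes. Their medians were 0.33 and 0.27. At an unadjusted p under 0.05 the counts were 1 and 1, and with DESeq2 1 and 0. Without the 2 libraries in doubt 3 of 18 salicylic acid and immunity genes were called higher and 1 lower. None of 11 touch and wound genes was called there. In that fit 13% of all genes tested were called higher and 14% lower, the shares to set beside each such count below. PR1, a defence marker, stood at 0.911, 53.98 and 1.78 CPM in the libraries labelled WT and at 12.9, 32.04 and 6.35 CPM in those labelled *pi4kß1ß2*. The high value in the library labelled WT replicate 2 made the groups overlap. Of 6 leaf markers GAPA (0.79), a chloroplast glyceraldehyde phosphate dehydrogenase, was called higher, and the sum of the markers was 39246 to 45941 CPM under the WT label and 41331 to 46399 CPM under the other. Leaving out the 2 libraries in doubt gave 3 leaf markers called higher. Of 8 root markers 7 passed the filter and none was called (0 at an unadjusted p under 0.05, 0 with DESeq2), and their sum was 27.4, 82.5 and 36.0 CPM under the WT label and 27.2, 59.6 and 56.4 CPM under the other. With those libraries left out 2 of 6 root markers tested, PIN2 and CASP1, were called higher. NRT2.1 did not pass the filter, and IRT1, an iron transporter of the root epidermis, stood at 0.468, 13.1 and 0.1205 CPM and at 0.648, 11.9 and 13.4 CPM. The part of root tissue in the gene differences above was not tested. Of 6 tested genes of age, flowering and senescence SPL15 (-0.95) was called lower, FT, AP1, SPL5 and SAG12 did not pass the filter, and of 2 tested seed genes none was called (0 at an unadjusted p under 0.05, 0 with DESeq2). In the fit without the 2 libraries in doubt 3 of the 6 genes of age, flowering and senescence were called lower, and the 1 seed gene then tested was called higher.

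**Figure D5:**
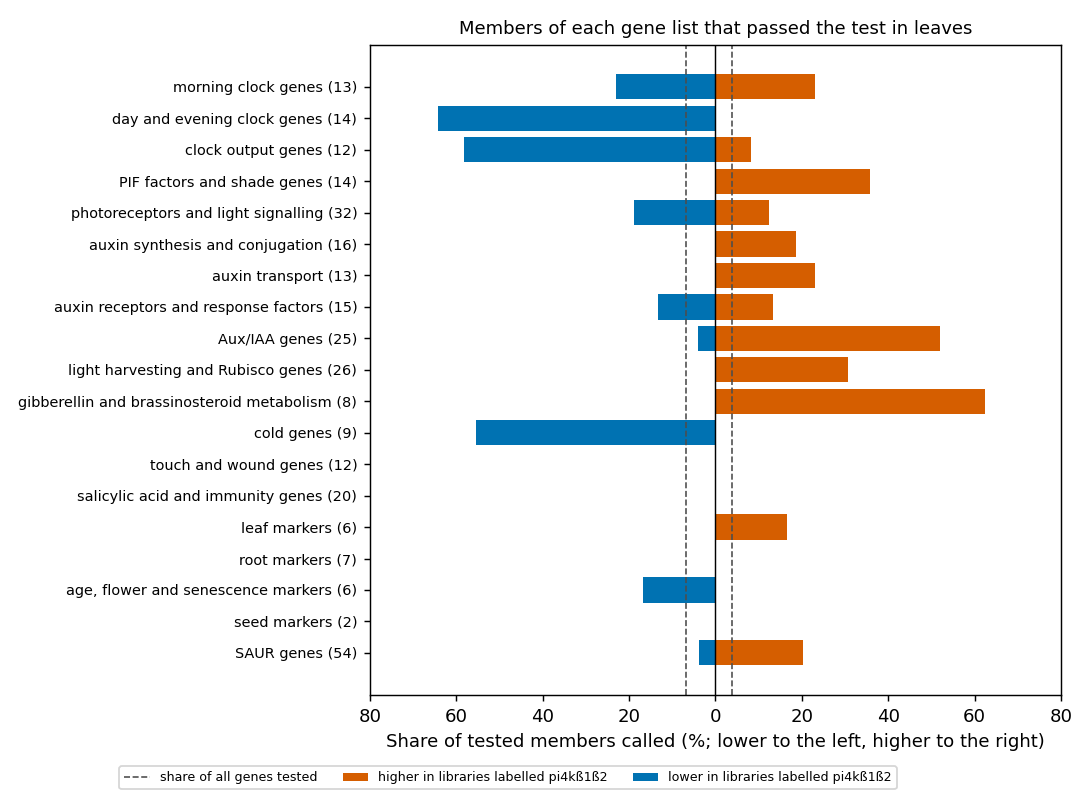
Share of the tested members of each gene list that were called higher (orange, to the right) or lower (blue, to the left) in the libraries labelled *pi4kß1ß2*, with the number tested in parentheses. Dashed lines mark the shares of all tested genes, 3.72% higher and 6.76% lower, and the day and evening clock list (9 of 14 lower) and the Aux/IAA list (13 of 25 higher) reach far beyond them.

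In roots of the same seedling series, where the label check genes separated by label, 2233 genes (11.3%) were higher and 3000 (15.2%) lower in the libraries labelled *pi4kß1ß2*, 26.6% in all. The label effect differed between leaf and root for 4642 genes (22.4% of 20765), by the interaction term of a fit of all 12 libraries. Of the 14 day and evening clock genes 1 was called in roots, lower, and 9 had a label effect that differed between the organs. PRR5 had a log2 fold change of -2.22 in leaves and 0.04 in roots (interaction adjusted p = 0.00241), TOC1 of -1.52 and -0.14 (0.003), and ATHB2 of 1.95 and -0.04 (1.45e-05). These root changes did not pass the test. Of the 25 Aux/IAA genes 14 differed in effect between the organs, and IAA3, also known as SHY2, was called in both with opposite signs, 1.05 in leaves and -1.44 in roots. The same was true of RVE4, CAT2, ARF2, LHCA4, CPD and GAPA. Without the 2 leaf libraries in doubt the label effect differed between the organs for 6652 genes. A difference between the organs and a difference made by these labels cannot be told apart.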

How the data were processed

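RNA-seq libraries (TruSeq stranded mRNA, single-end reads) were prepared from leaves and roots. According to the study's methods the authors trimmed reads with Trimmomatic, removed ribosomal reads with sortMeRNA and aligned them to TAIR10 with STAR, keeping reads that map to 1 gene; the submitters' processing notes name STAR. The deposited files hold raw counts per gene, unstranded and for each strand, and the authors did not normalize them. The column of the sense strand (95.0% to 95.6% of strand-assigned leaf counts) was used, and reads on no gene (2.73% to 2.97%) were left out.

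Genes with at least 1 CPM in 3 of 6 libraries were scaled by TMM and tested with edgeR 4.0.16 (glmQLFit and glmQLFTest, R 4.3.3), with Benjamini-Hochberg adjustment at 0.05. DESeq2 1.42.0, the likelihood ratio test, other scalings, filters, strands, a replicate block, all 12 libraries and leaving out libraries were alternatives. The tests were checked on simulated data. Members, gene lists and tests were chosen with earlier results of these data known. Named were the label check genes, the 8 largest called changes in each direction without overlap, and every called list member; other members are given by count and range, and examples not called (CCA1, PRR7, YUC5, YUC8, GH3.2, GH3.17, PIN2, PIN3, ABCB19, LAX1, CASP1, PHYB, CRY2, COR15A, CHS, PR1, IRT1) were chosen after their values were seen. Lists covered the clock (morning, day and evening, output), PIF and shade, photoreceptors and light signalling, 5 auxin classes including SAUR, gibberellin and brassinosteroid, light harvesting and Rubisco, cold, touch and wound, salicylic acid and immunity, and leaf, root, age, flower, senescence and seed markers. Symbols came from RefSeq for TAIR10.1, which matched 37051 of 37336 identifiers. Promoter windows were read from that assembly by gene start and strand. Some items are not reported here.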

Additional observations from a re-analysis of the deposited data

Results flagged for a closer look

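The label effect differed between leaf and root for 4642 genes by the interaction test, and the count rests on leaf labels of which 2 are in doubt. The following genes were called in both organs with opposite signs, and for each the log2 label effect in leaves minus that in roots is given. It was 1.0997 for RVE4, 1.15 for CAT2 and 0.82 for ARF2. It was 2.51 for IAA3, the largest of the 7. It was 1.4049 for LHCA4, 0.75 for CPD and 1.67 for GAPA. All 7 were higher in the leaf libraries labelled *pi4kß1ß2* and lower in the root libraries with that label. Groups of 3 libraries were too small for a search for single outlying samples.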

How the results depend on the processing

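Of the 103 called genes named here none changed direction under any of the 16 alternatives in which it could be fitted. All called genes had groups that did not overlap, so leaving out libraries could hardly have reversed a direction. The count of called genes moved from 2041 (724 higher, 1317 lower) to 3742 with DESeq2 (1690 and 2052), to 5306 with a fit of all 12 libraries (2461 and 2845) and to 5140 without the 2 libraries in doubt (2480 and 2660). Leaving out 1 leaf library gave 12 to 2219 genes in all, 4 to 909 higher and 8 to 1310 lower, and for the leaf minus root comparison 3715 to 5578 genes. Calls of named genes were kept for 103 of 103 with DESeq2, 92 of 95 without the 2 libraries in doubt, 8 of 100 without WT replicate 1, 7 of 100 without WT replicate 3 and 5 of 99 without *pi4kß1ß2* replicate 2. The cause of these differences was not tested. With the likelihood ratio test 2551 genes were called, with RLE scaling 1803, with library size alone 1830, without a filter 1593, with 1 CPM in 4 of 6 libraries 2050 and without regard to strand 2022. RLE scaling raised the share of higher genes among the calls from 35.5% to 40.5%. The log2 fold change of PI4KB1 (PI4Kß1), 0.03 as reported and not called, was -0.0079 with library size alone, -0.20 to 0.15 when 1 library was left out and -0.32 without the 2 libraries in doubt.

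With the replicate number as a block 1683 genes were called (649 higher, 1034 lower), 90 of the 103 named genes among them, and 4579 genes in the leaf minus root comparison. The deviations of same-numbered libraries from their group means correlated at 0.386, 0.668 and 0.0992 for replicates 1, 2 and 3. Every library correlated best with its own number among the libraries of the other label, except WT replicate 3. The labels do not say that a number marks a shared batch.

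Depth was 38116716 counts or more per leaf library. Counting error was not measured by level, and it weighs more on genes near the filter than on genes far above it. The 3 pools per label, with 2 of the 6 libraries in doubt by label, limit what can be said.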
